A study of Homo sapiens with 2 samples.

Results

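The miR-17-92 cluster is a group of 6 microRNA genes on chromosome 13, MIR17, MIR18A, MIR19A, MIR20A, MIR19B1 and MIR92A1, which lie side by side in the host gene MIR17HG. Peaks of RNA recovered with V5-tagged RRN3 were assigned to the cluster when their midpoint fell in the annotated body of 1 of these genes on the strand of the gene. By this rule 12 of the 7793 peaks in the deposited list belonged to the cluster, and they lay in 5 of its 6 genes. Of all 1509 annotated microRNA genes on the 19 chromosomes that held any peak, 156 (10.3%) had a peak by the same rule.

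RRN3 is best known as an initiation factor of RNA polymerase I. The protein was expressed with an N-terminal V5 tag from the EF1a promoter of a stably integrated lentiviral vector in SK-OV-3, an established human ovarian cancer cell line, so the tagged protein came in addition to the cells' own. Both libraries came from these cells after growth with 100 μM 4-thiouridine for 14 h, 365-nm UV light at 0.2 J/cm2 and treatment of the lysate with RNase A and DNase I (PAR-CLIP). The 1 immunoprecipitate library held RNA bound to anti-V5 antibody and eluted with V5 peptide, and the 1 input library held RNA of the lysate before immunoprecipitation. Both were reverse transcribed from random hexamers and ligated to adapters with molecular identifiers. With 1 library of each kind no value has a replicate check, no test was run, and read depth per peak was not analysed here. Intervals are 95% Wilson intervals and cover counting error only.

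A peak list gives no expression level, so it bears on the cell type only weakly. Over all protein-coding genes on chromosomes with peaks, 15.9% held a peak. Of 9 epithelial and ovarian carcinoma markers, PAX8 (4 intronic peaks) and ERBB2 (6 peaks, all within the intronic microRNA gene MIR4728) held a peak, and EPCAM, KRT7, KRT8, KRT18, KRT19, MUC16 and WT1 held none (22.2% with a peak, 6.32–54.7%). None of the 3 blood markers PTPRC, CD79A and CD3E held a peak (0–56.1%). Both intervals include the 15.9%. Some microRNA genes known from epithelial or blood cells were looked up after peaks in microRNA genes were seen. The epithelial genes MIR200A, MIR200B, MIR200C, MIR141, MIR429 and MIR205 each held a peak. Of the blood cell genes, MIR142, MIR150 and MIR155 held a peak and MIR144 and MIR451A held none. These genes were hand-picked with peaks in view, so their counts cannot be read against the 10.3% of all microRNA genes with a peak.

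MicroRNAs of this cluster are made from a single long primary transcript. The nuclear enzyme DROSHA with its partner DGCR8 cuts out each hairpin, DICER1 removes the loop, and 1 strand of the resulting duplex, the guide, stays in an Argonaute protein, where its seed pairs with target messenger RNAs. The cluster is amplified or overexpressed in several cancers and is often called an oncomir, with BCL2L11 among its best known targets.

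The guide strands are shown because nearly all covered bases fell on them. They fall into 4 seed groups and are given 5′ to 3′ with the seed, bases 2 to 8, in capitals. All sequences are from RefSeq (GRCh38.p14).
miR-17-5p: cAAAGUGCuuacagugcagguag
miR-20a-5p: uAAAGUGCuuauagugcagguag
miR-18a-5p: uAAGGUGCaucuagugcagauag
miR-19a-3p: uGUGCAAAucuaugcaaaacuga
miR-19b-3p: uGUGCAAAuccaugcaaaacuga
miR-92a-3p: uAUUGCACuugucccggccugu
MiR-17-5p and miR-20a-5p share the seed AAAGUGC and differ at 2 of 23 bases, C1U and C12U, with positions counted from 1 at the 5′ end of the arm and the base of miR-17-5p first. MiR-19a-3p and miR-19b-3p share the seed GUGCAAA and differ at 1 of 23 bases, U11C, with the base of miR-19a-3p first. MiR-18a-5p has the seed AAGGUGC and miR-92a-3p the seed AUUGCAC, each without a partner in the cluster.

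The hairpins are shown in their order along the chromosome, plus strand, to place the peaks, with every base covered by a peak in capitals. All 6 were identical to the GRCh38 genome sequence at their annotated positions.
MIR17 hairpin: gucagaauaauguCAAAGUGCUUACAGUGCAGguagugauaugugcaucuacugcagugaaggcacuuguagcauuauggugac
MIR18A hairpin: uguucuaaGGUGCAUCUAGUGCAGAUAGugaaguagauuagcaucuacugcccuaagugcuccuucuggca
MIR19A hairpin: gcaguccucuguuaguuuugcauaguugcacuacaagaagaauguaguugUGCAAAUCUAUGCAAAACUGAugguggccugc
MIR20A hairpin: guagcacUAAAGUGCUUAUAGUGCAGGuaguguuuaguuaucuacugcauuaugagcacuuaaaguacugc
MIR19B1 hairpin: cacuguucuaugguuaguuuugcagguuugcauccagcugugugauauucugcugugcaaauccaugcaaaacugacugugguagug
MIR92A1 hairpin: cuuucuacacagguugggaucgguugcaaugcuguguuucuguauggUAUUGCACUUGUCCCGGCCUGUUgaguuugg
In every hairpin with a peak the capitals form 1 unbroken stretch of about the length of a mature microRNA. The MIR19B1 hairpin has none.

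MIR17, the first gene of the cluster (chr13:91350605-91350688, GRCh38, plus strand, 84 bases), held 2 abutting peaks. The first peak (chr13:91350618-91350623) had a listed fold enrichment of 3.91 and the second (chr13:91350624-91350636) of 2.35. These and all further fold enrichments are given as listed, and it is unclear whether they are measured ratios, since over the whole list they are spread evenly from 2.00 to 4.00. Both p-values were listed as 0. Together they covered 19 bases, from base 1 to base 19 of miR-17-5p, including 7 of the 7 seed bases. MiR-17-5p is the guide strand that gave the seed family its name.

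MIR20A (chr13:91351065-91351135, 71 bases), whose guide has the same seed, also held 2 abutting peaks with p-values listed as 0. They lay at chr13:91351072-91351082 with a fold enrichment of 2.59 and at chr13:91351083-91351091 with 3.68. The 20 covered bases ran from base 1 to base 20 of miR-20a-5p and took in all 7 seed bases. In both genes of this seed group the stretch began at the first base of the 5p arm and stopped short of its last base, by 4 bases in MIR17 and by 3 in MIR20A.

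MIR18A (chr13:91350751-91350821, 71 bases), which encodes a close relative of miR-17 with another seed, held 2 abutting peaks with p-values above 0. The peak at chr13:91350759-91350770 had a fold enrichment of 2.87 and a p-value of 5.54e-58, and the peak at chr13:91350771-91350778 had 2.23 and 1.58e-73. They covered bases 4 to 23 of miR-18a-5p. Here the stretch began 3 bases inside the arm, ended at its last base and held 5 of the 7 seed bases.

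MIR19A (chr13:91350891-91350972, 82 bases), the source of 1 of the 2 miR-19 guides of the cluster, held 5 peaks, all with p-values listed as 0. They lay at chr13:91350941-91350945, chr13:91350943-91350953, chr13:91350946-91350956, chr13:91350954-91350961 and chr13:91350957-91350961. Their fold enrichments, in that order, were 2.35, 2.71, 2.49, 3.88 and 3.66. All 5 overlapped another peak of the list on the same strand, as did 323 of the 7793 listed peaks (4.14%), so they are not 5 separate places. Together they covered 21 bases, from base 3 to base 23 of miR-19a-3p, with 6 of the 7 seed bases. The covered arm was the 3p arm, the opposite side of the hairpin from MIR17, MIR18A and MIR20A.

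MIR92A1 (chr13:91351314-91351391, 78 bases), the last gene of the cluster, held 1 peak of 23 bases at chr13:91351361-91351383. Its fold enrichment was 3.57 and its p-value 3.94e-32, the highest p-value among the 12 peaks. The peak covered all 22 bases of miR-92a-3p, with 7 of the 7 seed bases, and 1 base beyond its 3′ end. That base was the only covered base of the cluster outside a mature arm.

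MIR19B1 (chr13:91351192-91351278, 87 bases), the source of the other miR-19 guide, held no peak on either strand. The nearest peaks on its sides lay in MIR20A, 101 bases before the gene, and in MIR92A1, 83 bases after it. Its guide differs from the covered guide of MIR19A at the 1 base given above. The same 23 bases of miR-19b-3p occur 2 times in the genome, on chromosomes 13 and X, counting exact matches on both strands.

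**Figure D1:**
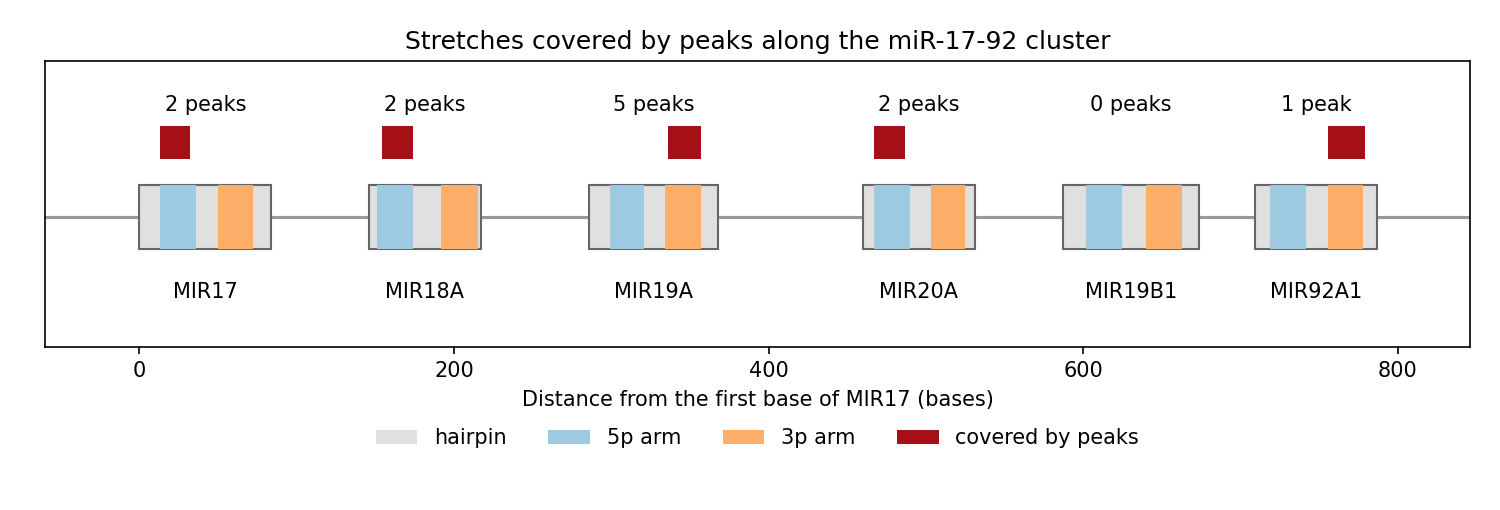
Map of the miR-17-92 cluster by distance in bases from the first base of MIR17, with hairpins in grey, annotated 5p arms in blue, 3p arms in orange and the stretches covered by peaks in red above them. Each of the 5 genes with peaks has 1 covered stretch over 1 arm, and MIR19B1 has none.

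Each gene with peaks thus had 1 site, meaning 1 stretch of touching or overlapping peaks, and the 12 peaks made 5 sites of 19 to 23 bases. Of the 473 bases of the 6 genes, 103 (21.8%, 18.3–25.7%) were covered. Of these covered bases 102 (99.0%, 94.7–99.8%) lay in an annotated mature arm. Bases next to each other in 1 peak are not independent, so these intervals are narrower than the true counting error. In 3 genes only the 5p arm was covered and in 2 genes only the 3p arm. In each of the 5 genes this was the arm known as the guide, and no base of the other arm or of the loop was covered.

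Other microRNA genes showed much the same placement. In the 124 others that held a peak and have both arms listed in RefSeq, 95.4% of 3045 covered bases lay in an arm, 1.9% between the arms and 2.66% outside them. Peaks covered only the 5p arm in 62 of these genes, only the 3p arm in 41, both arms in 20 and neither in 1. Sites of other microRNA genes that overlapped an arm, 149 in number, had a median length of 22 bases, and 133 of them (89.3%) began within 3 bases of the first base of the arm. All 5 sites of the cluster began within the same distance, at 0, 3, 2, 0 and 0 bases into the arm in chromosome order. Placement on the arms was therefore not particular to the cluster.

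Uridine is the base that 4-thiouridine replaces. In the cluster 29 of the 103 covered bases were U (28.2%, 20.4–37.5%), beside 156 of the 473 bases of the whole hairpins (33.0%). In 137 other microRNA genes with a peak and a listed hairpin, U made up 26.8% of covered bases and 25.1% of hairpin bases. The interval for the covered bases of the cluster includes the share of its hairpins and both shares of the other genes.

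The rest of the host gene was the comparison closest to the cluster, since both lie within the same annotated gene. MIR17HG (ENSG00000215417.14, chr13:91347686-91397592, plus strand, 49907 bases) is a long non-coding RNA gene, and the cluster starts 2919 bases after its first base and spans 787 bases. Of its 16 annotated transcripts, 3 carry all 6 microRNA genes within exons, 8 carry all 6 within introns and 5 do neither. The 6 microRNA genes held 25.4 peaks per kb. The remaining 49434 bases held 0 peaks, which allows up to 0.0607 peaks per kb with 3 counts as the limit for a count of 0. Chromosome 13 held 117 peaks on the plus strand, or 0.00119 per kb of its 97983125 sequenced bases, a density at which 49434 bases would hold 0.0590 peaks. A count of 0 is therefore the usual count for a stretch of this length and is no trait of the host gene.

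None of the parts of the host gene outside the 6 microRNA genes held a peak. The exons there amount to 12421 bases, with a limit of 0.242 peaks per kb, and the introns to 37013 bases, with a limit of 0.0811. The stretches between neighbouring microRNA genes, 35 to 92 bases each, amount to 314 bases with a limit of 9.55 peaks per kb. This bound is weak, since with touching peaks joined the 6 genes held 10.6 sites per kb in place of 25.4 peaks. On the opposite strand the host gene held no peak either. The list holds only regions that passed the authors' caller, so a count of 0 does not show that no RNA of the host transcript was recovered.

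Chromosome 13 held 238 peaks in all, on average 1 per 412 kb of sequenced bases or 0.00243 per kb over both strands. The nearest peak before MIR17HG lay 839 kb away at chr13:90509101-90509114 in LINC01049, with a p-value of 1.15e-07. The nearest after it lay 115 kb away at chr13:91512686-91512690 in GPC5, a glypican gene that is the next protein-coding gene downstream, with a p-value of 4.34e-32. GPC5 spans 1.48 Mb and held 5 peaks in 3 sites, or 0.00339 peaks per kb. Of the 40 microRNA genes of the chromosome, 8 had a peak, 5 of them in the cluster.

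The peaks could be ranked only by the deposited p-values. The test behind these is not given in the sources used here, so the rank need not be one of binding strength. The deposited false discovery rate and score are 1 for all 7793 peaks, and the evenly spread fold enrichments had 24.8%, 25.3%, 24.9% and 25.0% of peaks in the 4 equal parts of their range. Across all peaks the fold enrichment had no relation to −log10 of the p-value (Spearman −0.0176, across peaks of 1 list, which are not independent). The fold enrichments of the cluster, 2.23 to 3.91 with a median of 2.79, lay near the list's median of 3.00 and rank nothing.

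By p-value the genes of the cluster were mixed, with 3 holding p-values among the lowest of the list and 2 not. Of the cluster's 12 peaks 9 (75%) had a p-value listed as 0, compared with 119 of 459 peaks in other microRNA genes (25.9%) and 580 of 7793 in the list (7.44%). Counted by gene, which removes the weight of the 5 peaks in MIR19A, 3 of the 5 genes with peaks had such a p-value (60%, 23.1–88.2%), compared with 50 of 151 other microRNA genes with a peak (33.1%, inside that interval). The lowest p-value above 0 in the list was 3.46e-311, so values listed as 0 have no order among themselves and were set to its −log10, 310.46. On that scale the median of the cluster's peaks was 310.46, that of other microRNA peaks 89.01 and that of the 7322 peaks elsewhere 45.09. MIR92A1, at 31.40, lay below the last of these medians, and the 2 peaks of MIR18A lay between 45.09 and 89.01. The high values thus came from MIR17, MIR19A and MIR20A.

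**Figure D2:**
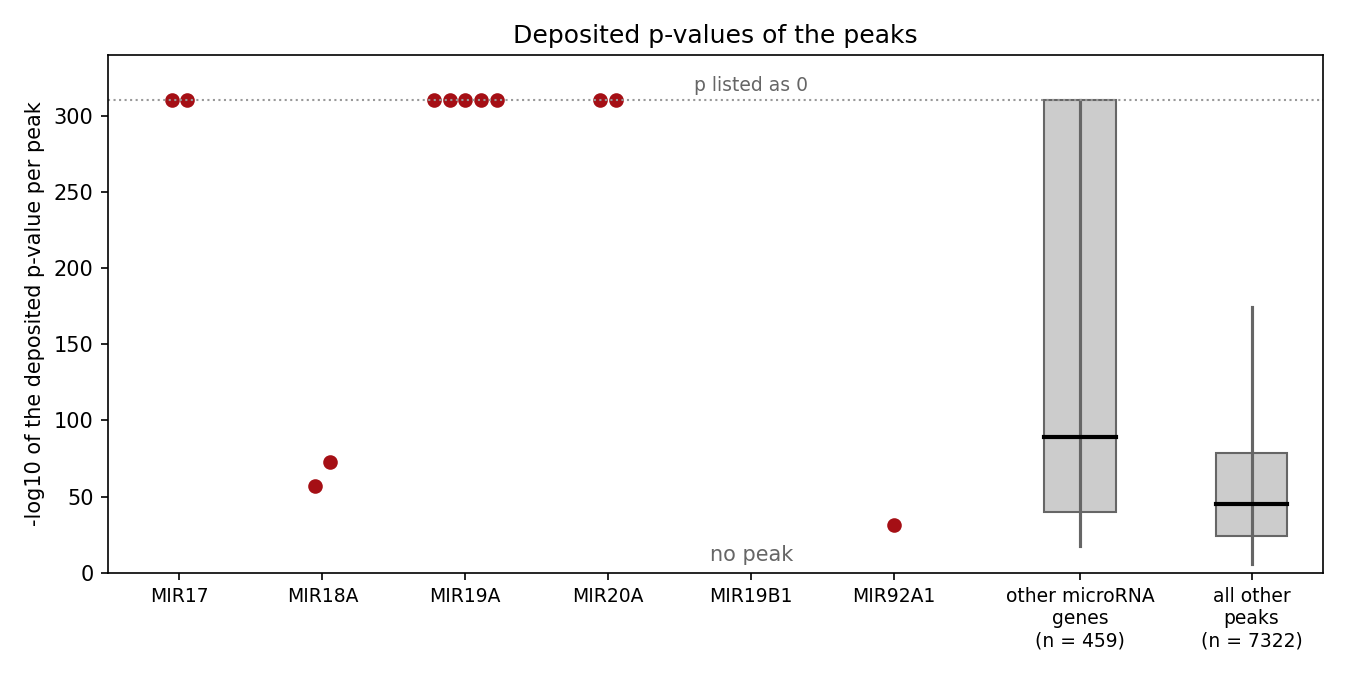
Deposited p-values as −log10 per peak, with 1 red point for each of the 12 peaks of the cluster by gene, and for the 459 peaks of other microRNA genes and the 7322 other peaks a box from the lower to the upper quartile, a thick line at the median and a thin line from the 10th to the 90th percentile. All peaks of MIR17, MIR19A and MIR20A lie on the dotted line at 310.46, where p-values listed as 0 were placed, and those of MIR18A and MIR92A1 lie far below it.

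In covered length the genes of the cluster were ordinary. The percent of bases covered was 22.6 in MIR17, 28.2 in MIR18A, 25.6 in MIR19A, 28.2 in MIR20A and 29.5 in MIR92A1. Over the 151 other microRNA genes with a peak it ran from 11.5 to 88.1 with a median of 26.7, and 49 of them lay above MIR92A1 and 40 below MIR17. The number of peaks per gene, 1 to 5 in the cluster, had a median of 3 and a maximum of 9 in the others, of which 21 held 5 or more.

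The 5 other microRNA genes with the highest percent covered were MIR4637 (88.1), SNORD138 (74.7, annotated as a microRNA gene in GENCODE despite its name), MIR30A (59.2), MIR197 (58.7) and MIR142 (54.0). In MIR30A, MIR197 and MIR142 peaks covered bases of both arms, 22 and 18, 21 and 22, and 21 and 22 bases of the 5p and 3p arm. No gene of the cluster had both arms covered.

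**Figure D3:**
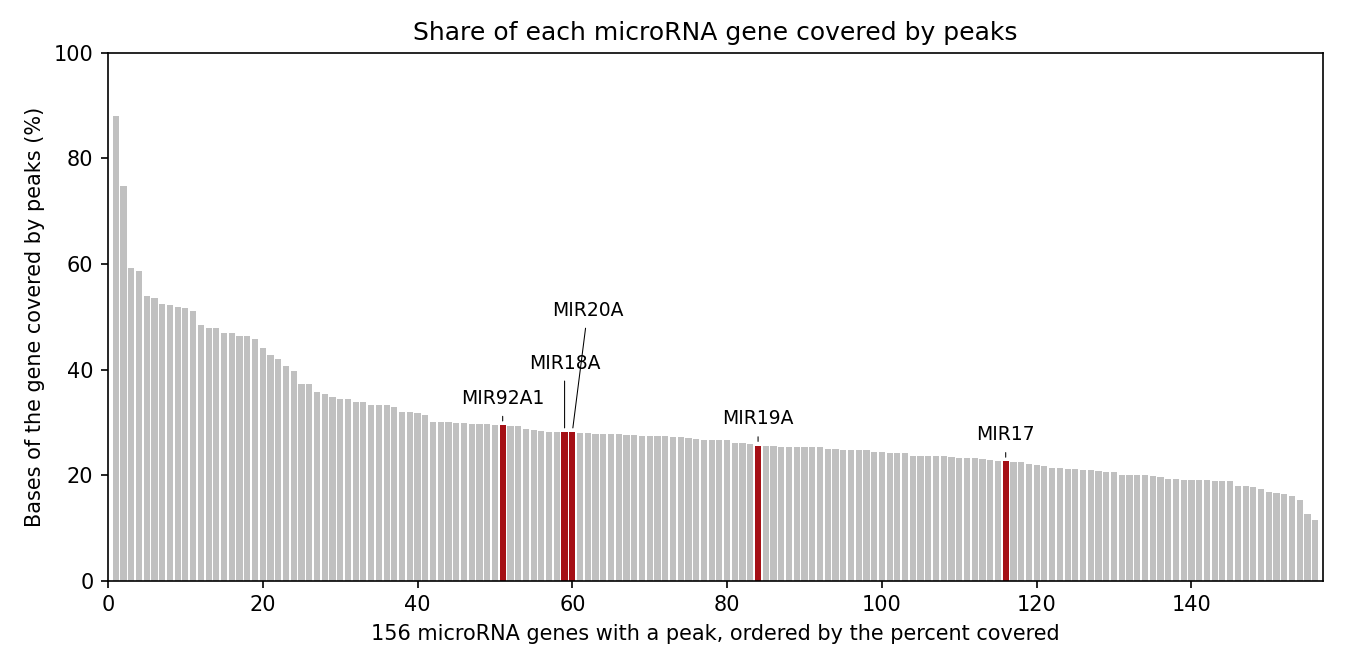
Percent of the bases of each of the 156 microRNA genes with a peak that peaks covered, in decreasing order, with the 5 genes of the cluster in red. They stand between 22.6% and 29.5%, with 49 of the other genes above all of them and 40 below.

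MicroRNA genes often occur in clusters, so the count of 5 of 6 genes (83.3%, 43.6–97.0%) was set beside other clusters on the 19 chromosomes with peaks. A cluster was defined as 3 or more microRNA genes of 1 strand with gaps of at most 10 kb. Of the 22 other clusters, 2 had a peak in every gene, 5 more had at least 1 peak and 15 had none. The fully covered ones were MIR200B, MIR200A and MIR429, of the epithelial miR-200 family, with 5 peaks, and MIR99B, MIRLET7E and MIR125A with 6 peaks. Over all 22 clusters 15 of 159 genes (9.43%) had a peak. This pooled share is weighted by the largest clusters, MIR512-1 with a peak in 0 of 46 genes and MIR379 with a peak in 3 of 42. The cluster with 6 genes thus had the third highest share among 23, with more peaks than any of the others. The count of peaks depends on the number of genes and on how sites are split, and the 12 peaks of the cluster made 5 sites. Because the members were chosen with earlier results of these data known, the rank is a description only.

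The paralogous clusters could not be compared. The miR-106a-363 cluster on chromosome X (MIR106A, MIR18B, MIR20B, MIR19B2, MIR92A2 and MIR363) and the miR-106b-25 cluster on chromosome 7 (MIR106B, MIR93 and MIR25) lie on chromosomes without any peak in the list, as do all genes of chromosomes 8, 9 and Y. A lack of peaks in these 9 genes therefore says nothing about their RNA.

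Outside the cluster, the seeds of its guides were found in few microRNA genes on chromosomes with peaks. These were MIR519D and MIR526B with the seed AAAGUGC, MIR4735 with AAGGUGC, and MIR92B and MIR367 with AUUGCAC. Of these 5 genes 1, MIR92B, held a peak, where 10.3% of all microRNA genes did, and 5 genes are too few to set beside that share. The seed GUGCAAA has no gene outside the cluster on such chromosomes.

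Exact copies of the guides elsewhere bear on which gene a read can be placed in. The guides of MIR17, MIR18A, MIR19A and MIR20A and the sites on them each occur 1 time in the genome. MiR-19b-3p and miR-92a-3p occur 2 times each, on chromosomes 13 and X. With 1 more base at the 3′ end both sequences occur 1 time, and the 23-base peak of MIR92A1 includes that base. Over all microRNA genes on chromosomes with peaks, 12 of the 203 that share a mature sequence with another gene had a peak (5.91%, 3.41–10.0%), and 142 of the 1214 that share none (11.7%, 10.0–13.6%). The part of shared sequence in the lack of a peak in MIR19B1 was not tested, and how the authors placed reads with several matches is not given in the sources used here.

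The genes that make microRNAs and the genes they act on were looked up by the same rule, with 2661 of 16702 protein-coding genes (15.9%) holding a peak. Of 21 genes of microRNA processing on chromosomes with peaks, 6 (28.6%, 13.8–50.0%) held a peak. The median length of the 21 genes was 46.3 kb, compared with 27.4 kb for all protein-coding genes, and genes with a peak were longer (median 96.1 kb) than genes without (22.2 kb). DROSHA, the nuclear endonuclease, held 2 exonic peaks with a lowest p-value of 1.38e-95. The 3 peaks of its partner DGCR8 all lay in the microRNA gene MIR1306, and the 4 of DICER1 all lay in MIR3173. TNRC6A and TNRC6B, scaffold proteins of silencing, each held 1 intronic peak, with p-values of 1.92e-269 and 1.90e-14, and the RNA editing enzyme ADAR held 1 exonic peak (8.44e-05). AGO2 lies on chromosome 8, without peaks.

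Of 23 known targets and regulators of the cluster 2 (8.70%, 2.42–26.8%) held a peak, and the median length of the 23 genes was 52.7 kb. THBS1, an inhibitor of blood vessel growth repressed by the cluster, held 2 exonic peaks with a lowest p-value of 6.15e-38. RB1, which restrains E2F factors, held 1 exonic peak with a p-value of 0.00367. BCL2L11, CDKN1A, E2F1 and TGFBR2, well known targets of these microRNAs, held none. The intervals of both lists include the 15.9% of all protein-coding genes.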

How the data were processed

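PAR-CLIP of V5-RRN3 in SK-OV-3 cells gave 1 immunoprecipitate and 1 input library, from which the authors deposited 1 list of peaks on GRCh38. The fold enrichment deposited with each peak is named as a ratio, but its scaling is not given in the sources used here, and its even spread from 2.00 to 4.00 leaves it unclear whether it is a measured ratio. The same holds for the test behind each deposited p-value, while the deposited false discovery rate and score are 1 throughout. The aligner, the peak caller and its threshold are likewise not given in the sources used here. List positions were read as counted from 0 with an open end, since the listed length equals end minus start, and are printed counted from 1.

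Peaks were assigned by midpoint and strand to GENCODE release 44 gene bodies. Arms and hairpins came from RefSeq (GRCh38.p14). Shares were set beside those of all microRNA or protein-coding genes on the 19 chromosomes with peaks, with 95% Wilson intervals and 3 counts as the limit for 0. The placement functions were tested on simulated data. Alternatives changed the overlap rule, strand, p-value cut of peaks, joining of peaks, margins and gene sets. Named genes were the 6 microRNA genes and their host, the paralogous clusters, listed genes with a peak, the nearest genes with peaks, clusters with a peak in every gene and the 5 most covered other microRNA genes. Genes that share a seed, the epithelial and blood microRNA genes, the host microRNA genes of listed peaks, and targets and markers without a peak were named after their values were seen. In the target and blood marker lists, 1 gene each is not reported here, for a reason unrelated to its values, and is not counted. The members and lists were chosen with earlier results of these data known. Tables were made with pandas 2.3.3 and numpy 2.4.6 in Python 3.11.15, intervals with scipy 1.17.1 and plots with matplotlib 3.10.9.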

Additional observations from a re-analysis of the deposited data

How the results depend on the processing

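Each of 11 results was recomputed under alternatives, 40 in all. In 30 of them a share moved by less than its 95% interval, or a count, density or median by less than 1.5 times, and in 10 it moved by more. Among the 30 are the 6 for the rest of MIR17HG, which only narrow or join a set without peaks and so could give nothing but 0. Counting peaks by any overlap, by whole peak or on either strand left the 12 peaks and 5 genes as they were.

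Joining touching peaks, which lowers counts by construction, gave 5 peaks in the 6 genes and 10.6 peaks per kb. Keeping the 3896 peaks with the lowest p-values gave 16.9% of the bases covered and 8.42% of all microRNA genes with a peak, and keeping the lowest 779 gave 3 genes of the cluster and 3.98% of all microRNA genes. Without p-values of 0 the median −log10 p-value was 57.26, on 3 peaks. With arms widened by 2 bases, or with the 9 peaks whose p-values are listed as 0 alone, 100% of covered bases lay in an arm. Over all 24 chromosomes, 8.30% of microRNA genes held a peak, since the added chromosomes hold none. Taking the start positions as listed, without adding 1, an alternative chosen after seeing the data, gave 22.8% of bases covered and 96.3% of covered bases in an arm.

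No paired analysis was possible because there is 1 library of each kind and no test. A p-value listed as 0 hides the order of the peaks with the lowest p-values, and reads per peak were not analysed here.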

Other observations

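Outside the cluster, 3 microRNA genes of chromosome 13 held a peak, MIR15A, MIR3613 and MIR3168, chosen after their values were seen. Together they held 7 of the 19 peaks in microRNA genes of this chromosome. MIR16-1, the gene paired with MIR15A, held no peak. It shares a mature sequence with another gene. MIR16-2 on chromosome 3, the other miR-16 gene, held 4 peaks in 1 site that covered 22 bases of its 5p arm. The lack of a peak in MIR16-1 therefore does not show that miR-16 was not recovered, and the part of shared sequence in it was not tested.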
